A study of Mus musculus with 2 samples.

Results

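The 10 genes described here are switched on by type I interferon, and they were followed through every cell cluster of the kidney in nephrotoxic nephritis (NTN), a mouse model in which serum antibodies injure the glomerulus. The genes were *Isg15*, *Usp18*, *Ifit1*, *Ifit2*, *Ifit3*, *Oasl2*, *Rsad2*, *Irf7*, *Rtp4*, and *Ifi44*, which are 10 of the 20299 genes counted. They were listed by name, with earlier results of these data known, and all 10 were found. The data were 2 droplet libraries of single kidney cells, 1 of 5470 cells from the WT genotype and 1 of 1844 cells from the *Vsir-/-* genotype, which lacks VISTA, and unique molecular identifiers (UMIs) were added up within each of 16 clusters named by the authors. In both groups, 8-week-old C57BL/6 mice were immunized with 200 µg of sheep IgG in Freund's complete adjuvant into the peritoneum and, 4 days later, received sheep nephrotoxic serum into a vein, at 2 µL per g of body weight according to the sample labels, and the kidneys were taken apart with liberase (0.2 mg/mL, 37°C, 30 minutes). Neither group was free of NTN, the *Vsir-/-* allele was present in every cell type of the animal, and the number of mice behind each library is not given in the sources used here.

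VISTA, the product of *Vsir*, is an inhibitory immune checkpoint that is best known on macrophages and other myeloid cells. Type I interferons bind the receptor chains IFNAR1 and IFNAR2, whose kinases JAK1 and TYK2 activate transcription factors in the cytoplasm. With IRF9 these enter the nucleus and bind the interferon-stimulated response element in the promoters of its target genes. In the kidney, macrophages, neutrophils, endothelial cells, and tubule cells can all respond in this way.

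The promoters of 5 of the genes are printed, the 4 in which a match to the motif of this element was found and *Ifi44*, in which none was. Each sequence is the 180 bases before the transcription start in RefSeq (GRCm38.p6), 5′ to 3′ on the strand of the gene, and capitals mark every match to TTTCNNTTTC or, on the other strand, GAAANNGAAA.
*Isg15*, chr4:156200819-156200998, minus strand: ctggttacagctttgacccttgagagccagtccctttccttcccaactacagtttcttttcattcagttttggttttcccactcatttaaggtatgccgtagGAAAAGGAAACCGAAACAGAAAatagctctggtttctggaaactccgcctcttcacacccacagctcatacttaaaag
*Ifit1*, chr19:34640709-34640888, plus strand: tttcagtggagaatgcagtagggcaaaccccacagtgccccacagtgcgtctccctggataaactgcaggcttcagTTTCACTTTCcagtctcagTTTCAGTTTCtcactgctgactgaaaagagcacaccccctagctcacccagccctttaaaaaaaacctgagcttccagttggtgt
*Ifit3*, chr19:34583349-34583528, plus strand: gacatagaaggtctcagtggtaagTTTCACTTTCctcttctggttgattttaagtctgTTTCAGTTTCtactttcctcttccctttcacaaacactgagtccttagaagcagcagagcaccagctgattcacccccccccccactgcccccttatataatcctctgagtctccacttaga
*Rsad2*, chr12:26456453-26456632, minus strand: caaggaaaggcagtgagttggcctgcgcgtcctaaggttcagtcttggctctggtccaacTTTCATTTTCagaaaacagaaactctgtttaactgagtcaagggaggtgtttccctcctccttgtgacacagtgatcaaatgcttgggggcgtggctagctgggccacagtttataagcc
*Ifi44*, chr3:151749911-151750090, minus strand: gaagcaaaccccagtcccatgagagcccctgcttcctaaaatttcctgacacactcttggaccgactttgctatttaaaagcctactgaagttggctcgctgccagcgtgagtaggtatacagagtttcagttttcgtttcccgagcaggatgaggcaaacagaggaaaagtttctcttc

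In *Isg15*, 3 overlapping matches ran together from 78 to 57 bases before the start. *Ifit1* and *Ifit3* held 2 matches each, beginning 104 and 85 bases and 156 and 122 bases before the start, and *Rsad2* held 1, beginning 120 bases before it. No exact match was found in the printed bases of *Ifi44*. They do hold tttcagtttt, which differs from the motif in 1 base, and looser forms of the element were not searched for. RefSeq gave promoter windows, from 250 bases before to 50 after the start, for 8 of the 10 genes, and 4 of the 8 held a match, against 3.44% of all 32851 windows. The gamma-activated motif TTCNNNGAA, which is bound in the response to IFN-γ, was present in 1 of the 8, *Ifit2*, and in 8.30% of all windows. *Usp18* and *Rtp4* had no window in the table.

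The libraries differed in more than genotype. They held 32799550 (WT) and 18601189 (*Vsir-/-*) UMIs, with medians of 4726.5 and 6673 per cell. *Vsir* itself gave 4278 and 8 UMIs. In the labels, a CD45+ sort is given for the WT library, but all kinds of kidney cells are given for the *Vsir-/-* library, whereas the methods of the study state a CD45+ sort. *Ptprc*, which encodes CD45, reached detection in 94.2% of the cells of the WT library and 73.6% of those of the *Vsir-/-* library. Summed over 20 tubule genes, the level was 9.91 to 378 UMIs per 1e+06 UMIs (CPM) over the WT clusters and 1355 to 15695 CPM over the *Vsir-/-* clusters that both libraries shared. *Xist* gave 0 UMIs in the WT library and 16405 in the *Vsir-/-* library, and the Y-linked *Ddx3y* and *Eif2s3y* together gave 3929 and 0, although the study describes its mice as male. Of the genes with at least 100 UMIs in 1 library and 0 in the other, 195 were found in the WT library alone and 1011 in the *Vsir-/-* library alone, and 100 of the 195 symbols were older synonyms in RefSeq of symbols found in the *Vsir-/-* library alone. All 10 interferon-stimulated genes were counted in both, and 5 cell barcodes occurred in both. With 1 library per genotype, the genotype, the sex, the sort, and the gene annotation cannot be told apart, no test between the genotypes was possible, and intervals (95%) cover counting error only.

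Across all cells the 10 genes together gave 28447 UMIs in the WT library and 16757 in the *Vsir-/-* library, which is 867 (857–877) and 901 (887–915) CPM. Both the levels within clusters and the shares of cells in them differed between the libraries, and at the WT mix of clusters the log2 ratio was -0.30 in place of 0.055. In WT mice, neutrophils and the infiltrating macrophages named M2-like R2 held 33.6% and 32.5% of these UMIs. In *Vsir-/-* mice these clusters held 9.58% and 10.9%, while the proliferating cell cluster held 30.5% and the CD4+ T cells without an effector memory (EM) pattern, named non-EM-like, held 21.1%. The summed level was lower in the *Vsir-/-* library in 6 of the 15 clusters that both libraries shared, higher in 4, and not resolved from equality by its counting interval in 5.

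**Figure D1:**
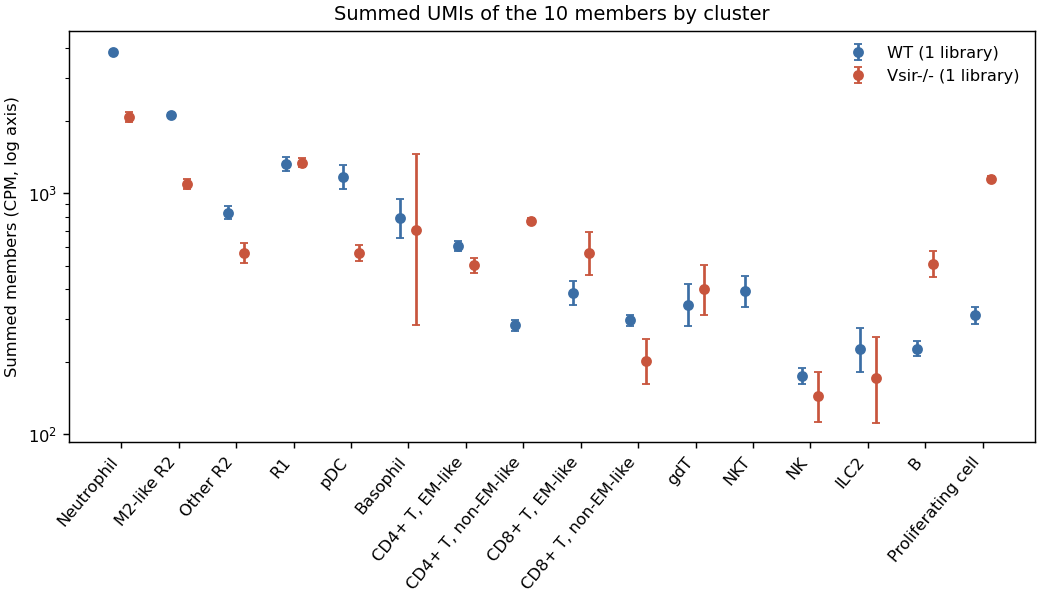
Summed level of the 10 interferon-stimulated genes (CPM, log axis) in each cluster of the WT and *Vsir-/-* libraries, with exact Poisson intervals at the 95% level. Neutrophils lead in both libraries, at 3855 and 2067 CPM, and the proliferating cells lie at 312 CPM in WT mice and 1152 CPM in *Vsir-/-* mice.

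Neutrophils led in both genotypes, and in WT mice other myeloid clusters followed them. The markers of neutrophils, macrophages, and monocytes peaked in the clusters named neutrophil, R1, and M2-like R2, in this order, in both libraries. The sum in WT mice was 3855 CPM in neutrophils, 2108 CPM in M2-like R2, 1320 CPM in kidney-resident macrophages (R1), 1171 CPM in the cluster named plasmacytoid dendritic cells (pDCs), and 831 CPM in the remaining infiltrating macrophages (Other R2). At the other end lay NK cells, at 175 (161–188) CPM. In *Vsir-/-* mice neutrophils stood first at 2067 CPM and R1 second at 1340 CPM, and their intervals did not overlap. By point value, the proliferating cells lay above M2-like R2 there, and the non-EM-like CD4+ T cells lay above Other R2 and pDCs. WT neutrophils held the highest level of 6 genes, *Isg15*, *Ifit1*, *Ifit3*, *Rsad2*, *Oasl2*, and *Rtp4*. *Irf7* peaked in WT M2-like R2. *Usp18* and *Ifi44* were also highest there, at 92.6 and 39.8 CPM, but their intervals overlapped those of pDCs, at 68.0 and 37.8 CPM. *Ifit2* was highest in WT R1, at 112 (88.7–140) CPM, which overlapped M2-like R2 at 86.3 (77.8–95.4) CPM. In *Vsir-/-* mice *Ifi44* was instead highest in proliferating cells, at 95.4 (86.5–105) CPM, and *Ifit3* in non-EM-like CD4+ T cells, at 156 (145–168) CPM, where it overlapped neutrophils at 124 (100–151) CPM.

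A difference of at least 2-fold, for genes with at least 20 UMIs in a cluster and after adding 0.5 UMIs to each library, was the rule for counting genes. Of 121 pairs of an interferon-stimulated gene and a cluster, 22 were higher in the *Vsir-/-* library (background over all genes, 17.4%) and 24 were lower (background 9.60%). All backgrounds and medians over all genes include genes found in 1 library alone, which differ by rule once they have enough UMIs. When all cells were summed, 2 of the 10 genes, *Rsad2* and *Ifi44*, were at least 2-fold higher, where the background was 33.9%, and none was 2-fold lower, where it was 10.1%. *Rsad2* was at least 2-fold higher in 8 of the 11 clusters in which it could be counted and *Ifi44* in 5 of 8. None of the other 8 genes was 2-fold higher in more than 3 clusters.

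**Figure D2:**
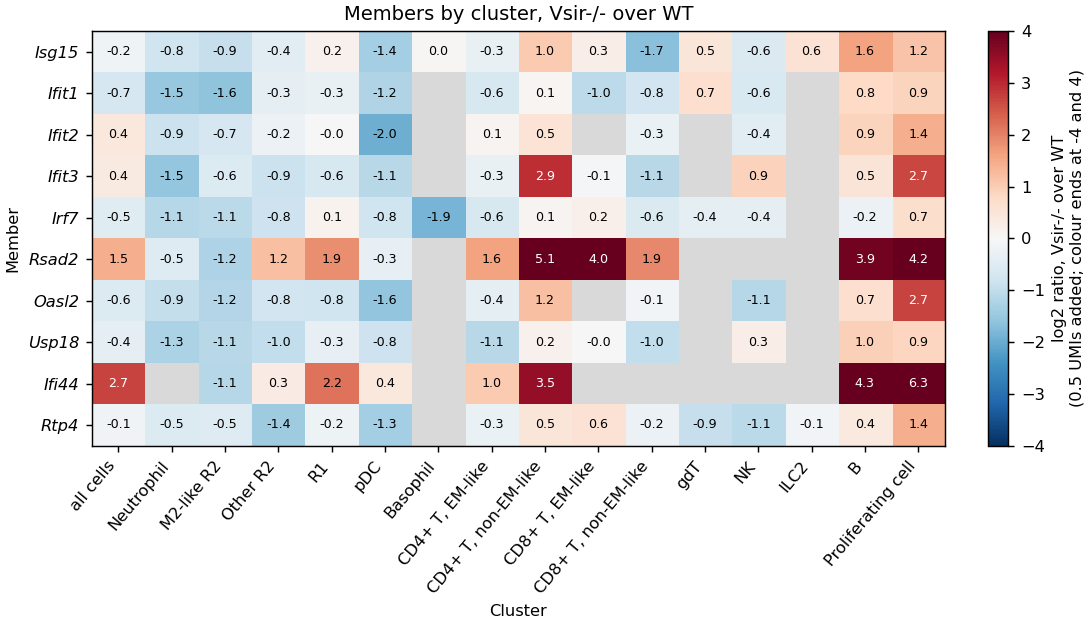
Log2 ratio of the level in the *Vsir-/-* library over the WT library for each of the 10 genes and each cluster, where grey marks fewer than 20 UMIs and the colour scale ends at -4 and 4. In neutrophils and M2-like R2 every gene with enough UMIs is lower, and the *Rsad2* and *Ifi44* values are higher in most of the remaining clusters.

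In neutrophils, all 9 genes with enough UMIs were lower in the *Vsir-/-* library, 4 of them by at least 2-fold (background 10.6%) and none higher (background 9.99%). Their median log2 ratio was -0.94, against -0.06 over all 7197 genes. *Isg15*, a ubiquitin-like protein that is attached to other proteins, was at 1041 (1001–1082) CPM in WT neutrophils and 593 (540–650) CPM in *Vsir-/-* neutrophils, a log2 ratio of -0.81. *Usp18*, the protease that removes ISG15 and restrains signaling at IFNAR2, was at 53.6 and 21.9 CPM (-1.29). Modifier and protease were thus both lower. The IFIT proteins bind viral RNA and hold back its translation. *Ifit1* was at 453 (427–480) and 158 (132–189) CPM, a log2 ratio of -1.52, and *Ifit3* at 361 (337–385) and 124 (100–151) CPM, a log2 ratio of -1.55. *Ifit2* was far less abundant in these cells, at 38.3 and 20.6 CPM (-0.89). The IFIT genes other than *Ifit2* thus showed the largest differences in neutrophils. *Irf7*, the transcription factor that amplifies interferon production, was at 328 and 149 CPM (-1.14), and *Oasl2*, a relative of the oligoadenylate synthetases that sense double-stranded RNA, at 620 and 323 CPM (-0.94). Smaller differences were seen for *Rsad2*, which encodes the antiviral enzyme viperin, at 489 and 341 CPM (-0.52), and for *Rtp4*, a chaperone of membrane receptors, at 470 and 324 CPM (-0.54). *Ifi44* gave 2 UMIs in WT neutrophils and 9 in *Vsir-/-* neutrophils, too few for the counting rule. Its log2 ratio of 3.845 went the other way, with an interval above 0. Tubule genes summed to 14.5 CPM in WT and 3800 CPM in *Vsir-/-* neutrophils and to 21.2 and 1540 CPM in M2-like R2. With tubule, mitochondrial, and ribosomal protein genes left out of the denominator, the log2 ratio of the sum was -0.92 in neutrophils and -0.97 in M2-like R2, against -0.90 and -0.95 with them. Only the listed tubule genes were left out in this way. Other transcripts of tubule cells stayed in the denominator, and what they do to the ratios was not tested.

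In M2-like R2, the 10 genes were all lower in the *Vsir-/-* library, 6 by at least 2-fold (background 7.61%) and none higher (background 8.11%). Their median log2 ratio was -1.09, against 0.01 over all genes. *Irf7* was the most abundant, at 509 (488–530) CPM in WT mice and 242 (219–266) CPM in *Vsir-/-* mice (-1.07), followed by *Isg15* at 494 (473–515) and 263 (239–289) CPM (-0.91). *Ifit1* differed most, at 97.9 and 31.6 CPM (-1.63). *Rsad2* and *Ifi44* went with the other genes here, at 103 and 43.6 CPM (-1.24) and 39.8 and 17.9 CPM (-1.15). *Oasl2* (-1.16) and *Usp18* (-1.11) lay close to these, while *Ifit2* (-0.68), *Ifit3* (-0.56), and *Rtp4* (-0.52) differed less. One cell held 42.2% of the *Ifit3* UMIs of *Vsir-/-* M2-like R2. The WT cluster also carried neutrophil transcripts at 4316 CPM, against 242 CPM in the *Vsir-/-* cluster. At the ratio of these genes to neutrophil transcripts found in WT neutrophils, that amount would bring 283 UMIs, or 3.06%, of the 9259 UMIs of the 10 genes in WT M2-like R2. Whether the neutrophil transcripts in M2-like R2 came with that ratio was not tested, nor was their source.

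In R1, the kidney-resident macrophages, the sum was not resolved from equality. It was 1320 (1236–1408) CPM in WT mice and 1340 (1284–1398) CPM in *Vsir-/-* mice, a log2 ratio of 0.02 (-0.09 to 0.13). Among the genes, 2 were at least 2-fold higher (background 13.6%) and none was 2-fold lower (background 8.78%). *Rsad2* was at 38.9 (25.6–56.5) and 144 (126–164) CPM, and *Ifi44* at 14.4 (6.90–26.5) and 67.5 (55.3–81.4) CPM. *Oasl2* was lower, at 236 and 137 CPM (-0.79), as was *Ifit3*, at 151 and 98.1 CPM (-0.62). For the other 6 genes the interval of the ratio included 0. *Isg15*, for example, was at 271 (233–312) and 306 (280–334) CPM. Other R2 lay with M2-like R2 in direction, with sums of 831 and 568 CPM (-0.55).

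In pDCs, 6 of the 10 genes were at least 2-fold lower in the *Vsir-/-* library (background 10.1%). The summed log2 ratio of this cluster, whose name is the authors', was -1.05 (-1.25 to -0.85). *Isg15* was at 412 (338–497) and 160 (138–184) CPM. *Irf7*, which pDCs as a cell type hold at a high level at rest, was at 261 (203–330) and 150 (129–174) CPM. The WT value rests on 21 cells, 1 of which held 21.9% of the UMIs of the 10 genes. The cluster carried conventional dendritic cell transcripts beside those of pDCs in both libraries (638 and 831 CPM, against 2554 and 1909 CPM). Of the pDC marker level, *Bst2*, which is itself interferon-stimulated, gave 1262 and 786 CPM.

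The lower level in neutrophils and M2-like R2 was also seen cell by cell. To equalize depth, 1000 UMIs were drawn from each cell, which left out 167 WT and 78 *Vsir-/-* cells that held fewer. At least 4 of the 10 genes were then detected in 155 of 503 WT neutrophils, or 30.8% (26.8–35.1), and in 21 of 153 *Vsir-/-* neutrophils, or 13.7% (8.70–20.2). Those with none of the 10 genes made up 10.1% and 24.8%. In M2-like R2, at least 4 genes were detected in 37 of 409 WT cells, or 9.05% (6.45–12.3), and in 4 of 159 *Vsir-/-* cells, or 2.52% (0.690–6.32), and none in 18.8% and 41.5%. NK cells, which were lowest in level, gave 0 of 580 in the WT library and 0 of 67 in the *Vsir-/-* library. Taken as up to 3 cells these counts allow 0.517% and 4.48%, and the Clopper-Pearson upper limits used for the other shares are 0.634% and 5.36%. Before thinning, the shares with at least 4 genes were 75.4% and 56.3% in neutrophils and 71.3% and 58.3% in M2-like R2.

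**Figure D3:**
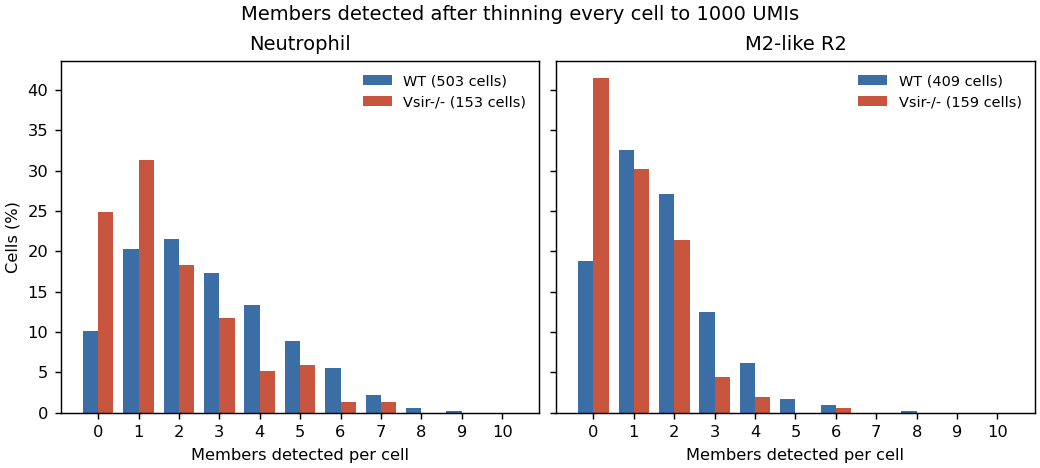
Share of cells (percent) by the number of the 10 genes detected after thinning to 1000 UMIs per cell, for the WT and *Vsir-/-* libraries. Neutrophils with none of the genes made up 10.1% in WT mice and 24.8% in *Vsir-/-* mice.

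Other genes of the response were also mostly lower in these myeloid clusters, though not in these alone. Of 48 further interferon-stimulated genes on a list, 46 were found in both libraries. In neutrophils 43 had enough UMIs, 18 were at least 2-fold lower (background 10.6%), none was 2-fold higher (background 9.99%), 41 lay below 0, and the median log2 ratio was -0.79. In M2-like R2 45 had enough UMIs, 10 were 2-fold lower (background 7.61%), none was higher (background 8.11%), 43 lay below 0, and the median was -0.64. In R1 the counts were 9 lower (background 8.78%) and 0 higher (background 13.6%) of 44, with a median of -0.28. Outside the myeloid clusters, values also lay mostly below 0 in EM-like CD4+ T cells (36 of 42), non-EM-like CD8+ T cells (30 of 40), and NK cells (26 of 33). In EM-like CD8+ T cells 14 of 30 and in proliferating cells 19 of 44 lay below 0. In non-EM-like CD4+ T cells 19 of 44 were 2-fold lower (background 10.7%) and 12 were higher (background 47.8%), with a median of -0.67. *Ifi27l2a*, the most abundant of those named here, was at 4649 and 1955 CPM in neutrophils and 5347 and 3128 CPM in M2-like R2. *Ifi209*, of the family of DNA-binding p200 proteins, was at 52.4 and 3.86 CPM in neutrophils, and *Oas1a*, an oligoadenylate synthetase, at 177 and 60.3 CPM in M2-like R2. *Ifit3b*, a near-identical copy of *Ifit3* with which it can share reads, was at 163 and 63.1 CPM in neutrophils. Of 5 signaling genes, none was 2-fold lower in either cluster once 0.5 UMIs were added. The kinase gene *Tyk2* lay next to this limit in neutrophils, at 10.5 and 5.15 CPM, with an interval that included 0. *Ifnar2*, a receptor chain, was higher, at 66.1 and 116 CPM in neutrophils (0.81) and 126 and 174 CPM in M2-like R2 (0.47), whereas *Ifnar1*, the other chain, was at 45.1 and 39.9 CPM and 53.5 and 54.9 CPM. The list of sensors and adaptors that start the production of interferon held 18 symbols, some of them synonyms of each other, and 14 were found in both libraries. Of those with enough UMIs, 2 of 10 in neutrophils (background 10.6%) and 2 of 13 in M2-like R2 (background 7.61%) were 2-fold lower, with none higher. Of 7 inhibitors of the pathway, 1 was 2-fold lower in neutrophils (background 10.6%), *Socs3*, and none in M2-like R2. Genes of the interferons themselves could not be compared, as only 1 of 18 was among the genes counted.

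Genes that respond preferentially to IFN-γ, the type II interferon, were a separate list. In M2-like R2, 4 of its 10 genes were at least 2-fold higher in the *Vsir-/-* library (background 8.11%) and none was lower (background 7.61%), with a median log2 ratio of 0.78. The chemokine gene *Cxcl9* was at 2.96 and 112 CPM and the GTPase gene *Iigp1* at 8.65 and 54.3 CPM. Over all cells *Cxcl9* was at 1.46 and 36.7 CPM and *Iigp1* at 9.97 and 198 CPM. *Iigp1* was thus more abundant elsewhere in the *Vsir-/-* library than in M2-like R2. *Gbp2*, another GTPase of cell defense, was at 94.9 and 237 CPM, and *Ciita*, the master regulator of MHC class II genes, at 42.8 and 101 CPM. In neutrophils *Iigp1* was the 1 gene of 9 on this list that was 2-fold higher (background 9.99%), while 2, *Gbp2* (-1.39) and *Irgm1* (-1.02), were lower (background 10.6%). Elsewhere, 4 of 9 were higher in Other R2 (background 6.71%), 5 of 10 in pDCs (background 11.9%), and 6 of 9 in B cells (background 16.3%). Of the *Vsir-/-* B cells, 38 of 88 held no *Ptprc* UMI, against 135 of 969 in the WT library. Nearer to background were R1 (2 of 10, background 13.6%) and EM-like CD4+ T cells (1 of 8, background 10.4%). So were proliferating cells (4 of 10, background 37.5%) and non-EM-like CD4+ T cells (5 of 10, background 47.8%). In Other R2 1 was lower (background 9.52%), in pDCs 2 (background 10.1%), and in ILC2 all 5 lay below 0. Whether the lists differed from each other was not tested.

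In lymphocytes and proliferating cells, the ratios ran upward for some genes. In non-EM-like CD4+ T cells the sum was 283 (268–299) CPM in the WT library and 768 (743–794) CPM in the *Vsir-/-* library, and 5 of the 10 genes were at least 2-fold higher, where the background was 47.8% and the median over all genes was 0.91. *Rsad2* was at 4.94 (3.09–7.48) and 167.5 (156–180) CPM, *Ifi44* at 6.28 (4.18–9.08) and 72.9 (65.3–81.1) CPM, and *Ifit3* at 20.2 (16.2–24.8) and 156 (145–168) CPM. The share called was thus near the background of this cluster. In proliferating cells the sum was 312 (288–337) and 1152 (1120–1184) CPM, and 7 of 10 genes were 2-fold higher (background 37.5%). *Ifi44* gave 2 UMIs in WT and 424 in *Vsir-/-* proliferating cells, and *Rsad2* was at 16.4 (11.3–23.1) and 314 (298–331) CPM. In B cells 3 of 10 were higher (background 16.3%). *Rsad2* in B cells was at 8.90 (6.05–12.6) and 131.5 (102–166) CPM, and *Irf7* was at 58.9 (51.1–67.5) and 49.6 (32.4–72.6) CPM. EM-like CD4+ T cells had a lower sum, at 603 and 503 CPM (-0.26), though *Rsad2* was higher there, at 17.8 and 54.5 CPM. Without cells that held at least 0.1% of their UMIs from endothelial markers, *Rsad2* in EM-like CD4+ T cells was at 17.8 and 15.9 CPM and no longer resolved. For CD8+ T cells of the EM-like cluster the sum was at 386 and 566 CPM (0.55), and all 21 *Rsad2* UMIs of the *Vsir-/-* library lay in 1 cell.

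The cells behind these values did not all carry leukocyte transcripts. No T cell transcript was detected in 233 of the 349 cells that the *Vsir-/-* library placed among non-EM-like CD4+ T cells, where tubule genes summed to 18757 CPM, whereas all 895 WT cells held one. The 116 *Vsir-/-* cells with a T cell transcript gave a sum of 799 CPM and the 233 without gave 757 CPM. Endothelial markers summed to 2583 CPM in the 116 and 1732 CPM in the 233, against 126 CPM in the WT cells. In the proliferating cluster the sum was 1169 CPM in 66 *Vsir-/-* cells with a T cell transcript and 1143 CPM in 123 without. Endothelial markers there summed to 3115 and 3853 CPM, against 32.9 CPM in WT cells with a T cell transcript. A T cell transcript thus did not set apart cells free of endothelial transcripts. *Vsir-/-* cells with neither *Ptprc* nor a T cell transcript numbered 428 in all clusters, against 179 in the WT library. Of these 428, 73 had more UMIs from 6 endothelial markers than from the tubule markers, and 355 had at least as many from tubule markers, a split chosen after the data were seen.

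All 10 genes were found in both the endothelial-marker cells and the tubule-marker cells, and all but *Ifit3* differed in level. The authors placed 72 of the 73 endothelial-marker cells among non-EM-like CD4+ T cells or proliferating cells. Of the 355 tubule-marker cells, 183 were placed among non-EM-like CD4+ T cells, 69 among proliferating cells, 48 in R1, and 36 among B cells. The sum was 1928 CPM in the 73 endothelial-marker cells and 395 CPM in the 355 tubule-marker cells. *Rsad2* led in the former, at 557 (523–593) CPM, followed by *Isg15* at 306 and *Ifi44* at 221 (200–244) CPM. In the tubule-marker cells *Rsad2* was at 34.5 (28.9–40.9) CPM and *Ifi44* at 11.2 CPM. *Ifit3* was level between both sets, at 147 CPM and 142 (130–154) CPM, so that it was the leading gene of the tubule-marker cells. It was detected in 95 of the 355, or 26.8%, and 10 cells held 42.5% of its 543 UMIs. *Ifit3b* gave 185 UMIs in 53 of these cells.

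**Figure D4:**
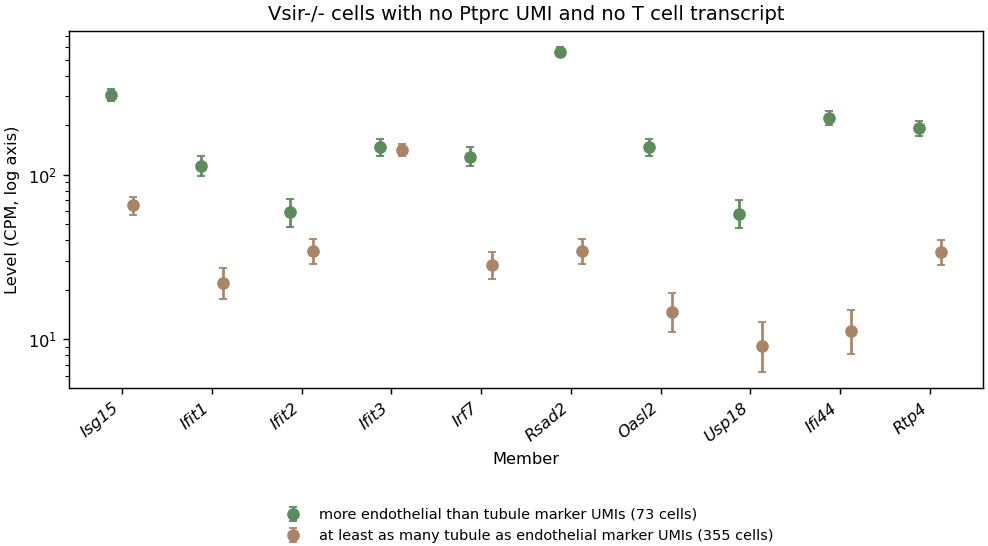
Level (CPM, log axis) of each of the 10 genes in *Vsir-/-* cells that held neither *Ptprc* nor a T cell transcript, divided into 73 cells with more endothelial and 355 with at least as many tubule marker UMIs, with exact Poisson intervals at the 95% level. *Rsad2* lies at 557 CPM in the former and 34.5 CPM in the latter, and *Ifit3* at 147 and 142 CPM.

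*Rsad2* and *Ifi44* lay mostly in cells with endothelial transcripts across the whole *Vsir-/-* library. Cells were divided at 0.1% of their UMIs from the 6 endothelial markers *Pecam1*, *Kdr*, *Emcn*, *Plvap*, *Egfl7*, and *Cdh5*, a limit chosen after the data were seen. In the *Vsir-/-* library, 198 cells (10.7%) reached it, with a median of 10758 UMIs, and 73 of them held *Ptprc*. They held 22.8% of all UMIs of the library, 83.0% of those of *Rsad2*, and 83.3% of those of *Ifi44*. For the other 8 genes the share ran from 32.0% (*Irf7*) to 52.3% (*Ifit1*), with 44.1% for *Usp18* and 39.3% for *Isg15*. The *Rsad2* level was 602 CPM in them and 36.3 CPM in the remaining cells, and the *Ifi44* level was 204 and 12.0 CPM. In the WT library 15 cells reached the limit, and they gave 2 *Rsad2* UMIs and 0 of *Ifi44*. The limit fell where few *Vsir-/-* cells lay, with 43 between 0.05% and 0.1%, 25 between 0.1% and 0.2%, and 173 at or above 0.2%. In the WT library, 154, 15, and 0 cells lay in these ranges. In the proliferating cluster, 62 of 189 *Vsir-/-* cells held 98.1% of the *Rsad2* UMIs and 96.2% of those of *Ifi44*, and among non-EM-like CD4+ T cells, 75 of 349 held 95.7% and 88.4%.

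**Figure D5:**
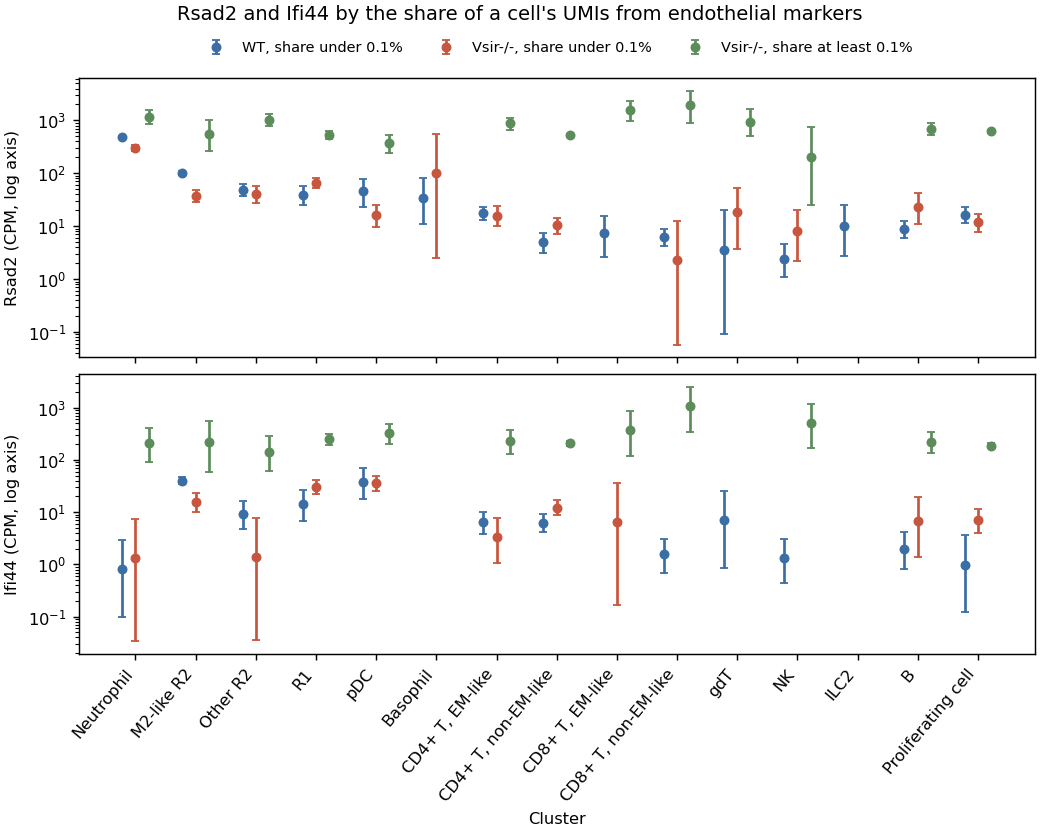
Level of *Rsad2* and *Ifi44* (CPM, log axis) in each cluster, for cells with at least and under 0.1% of their UMIs from 6 endothelial markers, in which points with 0 UMIs are not drawn. Over all *Vsir-/-* cells, *Rsad2* lies at 602 CPM above the limit and 36.3 CPM under it.

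Without these cells many of the higher values were lost or turned. For each of the 10 genes, these cells held a larger share of its UMIs than of all UMIs in the *Vsir-/-* library. Over all cells, leaving them out thus lowered the *Vsir-/-* level of every gene by construction. Values that stayed lower therefore carry little weight. Of 65 values of a single gene in a cluster with a resolved direction, the 37 that were lower all stayed lower. Of the 28 that were higher, 10 stayed higher, 12 were no longer resolved, and 6 became lower. The 6 were *Ifit1*, *Irf7*, and *Usp18* in proliferating cells and *Isg15*, *Oasl2*, and *Rtp4* in non-EM-like CD4+ T cells. Over all remaining cells *Rsad2* was at 59.8 CPM in WT mice and 36.3 CPM in *Vsir-/-* mice, a log2 ratio of -0.72 (-0.86 to -0.58), and *Rsad2* was higher in 3 clusters, lower in 3, and not resolved in 4. *Ifi44* stayed higher, at 8.61 and 12.0 CPM, a log2 ratio of 0.48 (0.20 to 0.76). The summed level of the 10 genes had a log2 ratio of -0.57 (-0.60 to -0.53) over all cells, with 1 cluster higher and 8 lower. In neutrophils and M2-like R2 the ratios were -0.99 and -0.96, close to those with all cells. In proliferating cells the ratio of the sum was -0.16 (-0.32 to 0.005), and in B cells 0.06. The 1 cluster that stayed higher was that of non-EM-like CD4+ T cells, at 0.35 (0.24 to 0.47). There *Ifit3* was at 20.3 and 167 CPM (3.04), and *Ifit2* (0.43), *Rsad2* (1.07), and *Ifi44* (0.96) were also higher. The other 6 genes of that cluster were lower, *Isg15* (-0.33), *Ifit1* (-0.77), *Irf7* (-0.79), *Oasl2* (-0.65), *Usp18* (-1.54), and *Rtp4* (-0.99). In R1, 22 of 237 *Vsir-/-* cells held 61.9% of the *Rsad2* UMIs and 62.0% of those of *Ifi44*. Among the other R1 cells *Rsad2* was at 38.9 and 66.1 CPM, a log2 ratio of 0.77 (0.13 to 1.45), and *Ifi44* at 14.4 and 30.8 CPM, a log2 ratio of 1.10 (0.08 to 2.26).

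Few cells held every gene of the family. All 10 were detected together in 15 WT cells, 14 of them M2-like R2 and 1 R1, with a median of 13240 UMIs. In the *Vsir-/-* library 45 cells held all 10, with a median of 58581 UMIs, and 24 of these were in the proliferating cluster, 13 were non-EM-like CD4+ T cells, and 2 were M2-like R2. Of the 45, 19 held neither *Ptprc* nor a T cell transcript.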

How the data were processed

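Kidney cells of WT and *Vsir-/-* mice with NTN were profiled by 10x Genomics 3′ scRNA sequencing (version 3.1), 1 library each. According to the submitters' processing notes, the authors used Cell Ranger (version 3.1.0), R (version 4.0.3), Seurat (version 3.2.3), and the mm9 genome build. The authors deposited raw counts (UMIs of every gene in every cell, as whole numbers). Their stated filters kept genes found in at least 5 cells and cells with at least 200 UMIs. The smallest deposited cells held 504 UMIs in the WT library and 501 in the *Vsir-/-* library. The deposited mitochondrial percent per cell, limited by the authors to 10%, served for an alternative limit of 5%. Treatment of doublets is not given in the sources used here, and none were removed.

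UMIs were summed by the authors' cluster and library, so cluster names are theirs. CPM used the total UMIs of the same cells as denominator, with exact Poisson intervals for levels, exact conditional intervals for ratios, and Clopper-Pearson intervals for shares. Because cells are not replicates, no p-value was computed. Counting genes used at least 20 UMIs per cluster, a pseudocount of 0.5 UMIs, and a 2-fold limit, over all genes of each cluster. Cells were thinned to 1000 UMIs with a fixed seed. The rule for named genes takes the 10 interferon-stimulated genes, genes of the fixed lists (further interferon-stimulated genes, interferons, receptors, signaling, sensors, inhibitors, IFN-γ-preferring genes, cell type markers), and the 8 genes most like the sum. These genes and lists were chosen with earlier results of these data known. Genes of either library alone were kept out of the counts of the fixed lists, because the libraries carry different symbol sets. They were not kept out of the backgrounds and medians over all genes. Counting at the 3′ end cannot divide near-identical copies (*Ifit3* and *Ifit3b*, *Ifit1* and *Ifit1bl1*) with certainty. Promoters came from RefSeq (GRCm38.p6), not mm9. Ratios, 2-fold calls, and ratio intervals were tested on simulated Poisson counts of M2-like R2, and thinned cells were checked for their total. UMIs gathered in single cells were not simulated, and the other steps were not tested in this way. Python 3.11.15, numpy 2.4.6, scipy 1.17.1, pandas 2.3.3, and matplotlib 3.10.9 were used. Alternatives changed the filter, pseudocount, fold limit, depth, denominator, cells kept, weighting of cells, cluster mix, and centring. The division by endothelial markers, by T cell transcripts, and the sums without *Rsad2* and *Ifi44* were chosen after the data were seen.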

Additional observations from a re-analysis of the deposited data

Results flagged for a closer look

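The summed log2 ratio of *Vsir-/-* over WT had opposite directions in different clusters, each with a counting interval that left out 0, and the difference between clusters was not tested. It was negative in neutrophils (-0.90), M2-like R2 (-0.95), Other R2 (-0.55), pDCs (-1.05), EM-like CD4+ T cells (-0.26), and non-EM-like CD8+ T cells (-0.56). It was positive in non-EM-like CD4+ T cells (1.44), EM-like CD8+ T cells (0.55), B cells (1.17), and proliferating cells (1.88).

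*Rsad2* was lower in *Vsir-/-* neutrophils (-0.52) and M2-like R2 (-1.24) and higher in R1 (1.89), non-EM-like CD4+ T cells (5.08), and proliferating cells (4.26). *Ifi44* was lower in M2-like R2 (-1.15) and higher in R1 (2.23), non-EM-like CD4+ T cells (3.54), and proliferating cells (6.58). Beside these values, endothelial markers summed to 68.6 CPM in *Vsir-/-* M2-like R2, 269 CPM in neutrophils, 995 CPM in R1, 1958 CPM in the non-EM-like CD4+ cluster, and 3614 CPM in proliferating cells. Without cells that held at least 0.1% of their UMIs from these markers, *Rsad2* was at 0.77 in R1, 1.07 in the non-EM-like CD4+ cluster, and -0.47 and no longer resolved in proliferating cells, and *Ifi44* was at 1.10, 0.96, and 2.82.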

How the results depend on the processing

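No paired analysis was possible because each genotype had 1 library and its replicate number is only a name. For the sum over all cells, a log2 ratio of 0.055, the sign changed with thinned cells (-0.10), a denominator without mitochondrial, ribosomal protein, and tubule genes (-0.15), equal weight per cell (-0.11), without *Rsad2* and *Ifi44* (-0.23), at the WT mix of clusters (-0.30), and without endothelial-marker cells (-0.57). It stayed positive as UMIs per cell (0.81), with at most 5% mitochondrial UMIs (0.21), in *Ptprc*-positive cells (0.022), without the top cells (0.014), and without *Isg15* (0.12). EM-like CD8+ T cells changed sign when thinned (-1.16), without the top cell (-0.00029), at equal weight (-0.10), and without endothelial-marker cells (-0.047), as did proliferating cells in the last case (-0.16). That case left 1 cluster higher and, of 115 pairs, 5 that were 2-fold higher (all genes 15.1%) and 31 lower (10.4%), against 22 and 24 of 121. Thinning left 63 pairs, 10 higher (13.0%) and 10 lower (11.4%), and a 1.5-fold limit gave 31 higher (26.4%) and 44 lower (18.2%) of 121. The share of cells with at least 4 genes, 4.00% in WT mice and 2.38% in *Vsir-/-* mice, was 20.8% and 29.3% unthinned, 8.77% and 7.84% at 2000 UMIs, 7.62% and 6.29% for at least 3 genes, and 2.00% and 1.08% for at least 5. Of 155 values per cluster, 108 stayed within the interval of the main value and 42 left it. The other 5 changed sign in a cluster whose sum had a resolved direction. Changes of sign in clusters without a resolved direction were not counted apart. In R1, for example, the ratio ran from -0.20 to 0.195, and 6 of 10 settings kept it unresolved. None of 71 resolved values of single genes in clusters took the opposite resolved sign under thinning, in *Ptprc*-positive cells, with the other denominator, without the top cells, or as UMIs per cell. Many of them were no longer resolved under thinning, among them *Rsad2* and *Ifi44* in both R1 and M2-like R2. In neutrophils, only *Usp18* lost its resolved direction in this way. Without endothelial-marker cells, 6 of the 65 with at least 20 UMIs took the opposite resolved sign, all from higher to lower, and 12 were no longer resolved. This setting lowers the *Vsir-/-* level of each gene over all cells by construction. Few UMIs limit several *Vsir-/-* clusters, with 2 of the 10 genes countable in basophils, 2 in ILC2, and 4 in gamma delta T cells. The causes of these changes were not tested.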

Other observations

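Across 29 pools of a cluster and a library with at least 20 cells, and among 10272 genes with at least 300 UMIs, the genes whose level was most like the sum of the 10 were *Tmem184b* (correlation 0.87), *Slfn5* (0.85), *Ifitm2* (0.84), *Cd14*, *Ifi204*, *Gsn*, *Rab31*, and *Trib1* (0.83 each). These values are a description, since pools of a library share its depth and background RNA. Among the 10 genes, *Isg15* was most like the sum (0.95), and *Usp18* (0.47) and *Ifi44* (0.38) were least like it. Each gene was itself part of that sum, in which abundant genes weigh more, so this order is partly fixed by abundance.

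*Socs3*, an inhibitor of JAK signaling, was at 237 CPM in WT neutrophils and 102 CPM in *Vsir-/-* neutrophils. *Ifng* gave 31 UMIs in WT neutrophils and 1 in *Vsir-/-* neutrophils, and 35 and 4 in M2-like R2. It was higher in *Vsir-/-* EM-like CD4+ T cells, with 490 and 701 UMIs (a log2 ratio of 1.35). The log2 ratio was also above 0 in EM-like CD8+ T cells (2.92), non-EM-like CD8+ T cells (4.23), and NK cells (1.34), and below 0 in proliferating cells (-1.89). Over all cells *Ifng* was at 60.2 CPM in the WT library and 78.9 CPM in the *Vsir-/-* library. *Mx1*, a classic target of type I interferon, gave 503 UMIs in the WT library and 0 in the *Vsir-/-* library, and the same sensor was counted as *Mb21d1* in WT mice (402 and 0 UMIs) and as *Cgas* in *Vsir-/-* mice (0 and 308 UMIs), so these symbols were not compared.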
